A study of Homo sapiens with 2 samples.

Results

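A set of 10 genes that make and use small silencing RNAs were followed in T47D cells that carried a short hairpin against RON. They were taken by symbol from the 25240 genes of the 2 deposited transcript tables: the Argonaute genes EIF2C1, EIF2C2, EIF2C3 and EIF2C4 (now AGO1 to AGO4), DICER1, DGCR8, TARBP2, XPO5, TNRC6A and TNRC6B. All 10 were found, with 18 of the 37839 transcripts, and all 10 reached 1 FPKM in both libraries. FPKM is the number of sequenced fragments divided by the length of the transcript and by the size of the library.

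T47D is an established human luminal breast cancer line. The control library (shNT, RON proficient) is from cells given a non-targeting hairpin, and the knockdown library (shRON) from cells given a hairpin directed at RON, the receptor tyrosine kinase encoded by MST1R. The cells of both groups were transduced, were selected with puromycin at 5 ug/mL and then held at 1 ug/mL, and grew in high-glucose DMEM with 10% serum, so the control cells are also labelled as carrying a hairpin. The name of the control's table calls its cells wild type, and the label was followed. Whether either group is 1 clone, which promoter drove the hairpins and which hairpin sequences were used, the sources used here do not give. Each group has 1 library, so differences have no replicate check and no p-value, and describe these 2 libraries. In bulk RNA, fewer cells with a transcript and less of it per cell cannot be told apart.

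MicroRNA precursors are cut from long nuclear transcripts by the Microprocessor, which joins the nuclease DROSHA with its RNA-binding partner DGCR8. Exportin-5, the product of XPO5, carries the resulting hairpins to the cytoplasm, where Dicer, helped by the double-stranded RNA-binding proteins TRBP (TARBP2) and PACT (PRKRA), trims them to duplexes. An Argonaute protein keeps 1 strand as a guide and, with a GW182 scaffold protein such as those of TNRC6A and TNRC6B, brings deadenylases and decapping enzymes to matching mRNAs. Vector-made short hairpins use the export, dicing and Argonaute steps. AGO2 is the human Argonaute best known for cutting a target that pairs fully with its guide.

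The libraries rested on 2.90 gigabases of transcript coverage in shNT and 2.77 in shRON. MST1R had 12.1 FPKM in shNT against 9.10 in shRON, a ratio of 0.749 with an approximate 95% counting interval of 0.674 to 0.832, and 17.7% of measured genes had a lower log2 ratio. All 12 luminal markers reached 1 FPKM in both libraries, KRT8 being the most abundant (3839 and 2634 FPKM). Of the 12, 7 had a log2 ratio of shRON to shNT below 0, against 46.1% of measured genes, and 5 one above. On the FPKM + 1 scale 4 were at least 1.5-fold lower in shRON (PGR, TFF3, CDH1 and ESR1), against 8.84%. By that size 0 were higher, against 9.95%. Of 15 markers of basal, stromal, immune and endothelial cells, 2 reached 1 FPKM in shNT and 3 in shRON, none of them above 7.25 FPKM, while PTPRC, CD3E, LYZ, TYROBP, PECAM1 and VWF were listed at 0 in both.

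The results turn most on 3 Argonaute genes that lie side by side and on TARBP2, so the 250 bases before 1 annotated start of each are shown first. EIF2C4, EIF2C1 and EIF2C3 lie in that order on the plus strand of chromosome 1, from 36273828 to 36522063 in hg19, a span of 248.2 kilobases with 0 other measured genes starting inside it. The windows are RefSeq's (promoters of build GRCh38.p14), were matched by sequence to GRCh37, the same assembly as hg19, and are given by their GRCh37 positions, all on the plus strand. They are chr1:36273367-36273616 for EIF2C4, chr1:36348560-36348809 for EIF2C1, chr1:36396456-36396705 for EIF2C3 and chr12:53894457-53894706 for TARBP2. Capitals mark matches, on either strand, to 4 motifs that were searched: the GC box GGGCGG, the CCAAT box CCAAT, the E-box CACGTG and the TATA box TATAAA. No capitals of different motifs overlap in these 4 windows.
EIF2C4: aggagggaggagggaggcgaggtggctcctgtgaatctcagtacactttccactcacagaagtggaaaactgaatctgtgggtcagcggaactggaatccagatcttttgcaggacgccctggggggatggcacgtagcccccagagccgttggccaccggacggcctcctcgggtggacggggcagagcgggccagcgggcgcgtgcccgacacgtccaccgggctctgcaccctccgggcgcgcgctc
EIF2C1: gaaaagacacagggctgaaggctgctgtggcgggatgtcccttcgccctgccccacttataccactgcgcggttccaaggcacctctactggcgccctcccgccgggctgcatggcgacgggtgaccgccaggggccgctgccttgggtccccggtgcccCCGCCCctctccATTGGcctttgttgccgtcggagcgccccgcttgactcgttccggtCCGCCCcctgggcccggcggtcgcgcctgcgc
EIF2C3: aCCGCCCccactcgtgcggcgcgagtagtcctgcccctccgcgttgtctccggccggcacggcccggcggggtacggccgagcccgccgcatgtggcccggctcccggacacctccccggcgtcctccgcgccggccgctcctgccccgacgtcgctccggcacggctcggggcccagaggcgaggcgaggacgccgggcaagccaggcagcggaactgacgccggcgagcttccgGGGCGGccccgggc
TARBP2: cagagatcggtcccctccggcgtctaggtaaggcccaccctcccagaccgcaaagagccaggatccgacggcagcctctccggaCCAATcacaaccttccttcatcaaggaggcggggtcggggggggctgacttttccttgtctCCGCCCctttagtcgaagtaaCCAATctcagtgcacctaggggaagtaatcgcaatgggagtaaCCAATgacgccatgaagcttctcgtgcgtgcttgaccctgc

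The windows of these neighbours differ. EIF2C4 holds no match to any of the 4 motifs, EIF2C3 has 2 GC boxes, and EIF2C1 has 2 GC boxes and 1 CCAAT box. TARBP2 has 1 GC box and 3 CCAAT boxes in the window shown. Its RefSeq windows 2 and 3, not shown, precede starts at 53895067 and 53895370. Window 2 holds 2 GC boxes, and window 3 holds 1 CCAAT box. The start of window 3 lies 7 bases before that of the transcript NM_134324.2. Among the 9 members with an entry in the RefSeq table (EIF2C2 has none), 8 hold a GC box and 6 a CCAAT box in their first window, against 42.6% and 32.0% of 34796 promoter windows of the same length. An E-box (6.31% of all windows) and a TATA box (10.8%) were found in 0 of the 9. The background counts every distinct window, alternative starts included, while each member counts once, so the shares are not on the same basis. Of the further windows of DICER1, numbers 2 and 5 hold none of the motifs. These are matches of letters, not measured binding. The start of the table's transcript lay at the RefSeq start for EIF2C1, and 66 bases downstream of it for EIF2C3 and 211 for EIF2C4.

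Levels were low to moderate, and their order changed at the top. In shNT the order was TARBP2 (19.5 FPKM), XPO5 (14.6), EIF2C2 (7.64), DICER1 (6.48), TNRC6A (6.48), DGCR8 (6.19), EIF2C1 (3.28), TNRC6B (2.17), EIF2C3 (2.02) and EIF2C4 (1.59). In shRON it was XPO5 (17.4), EIF2C2 (14.0), TARBP2 (13.2), DICER1 (7.92), DGCR8 (6.42), TNRC6A (5.27), EIF2C1 (5.17), EIF2C4 (2.92), EIF2C3 (2.89) and TNRC6B (2.73). EIF2C2 and TARBP2, TNRC6A and EIF2C1, and the last 3 genes in shRON lie close to each other, and without replicates the order among such neighbours is not established. EIF2C2 was exceeded in level by 54.6% of measured genes in shNT and by 38.3% in shRON, and TARBP2 by 28.6% and 39.9%.

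**Figure D1:**
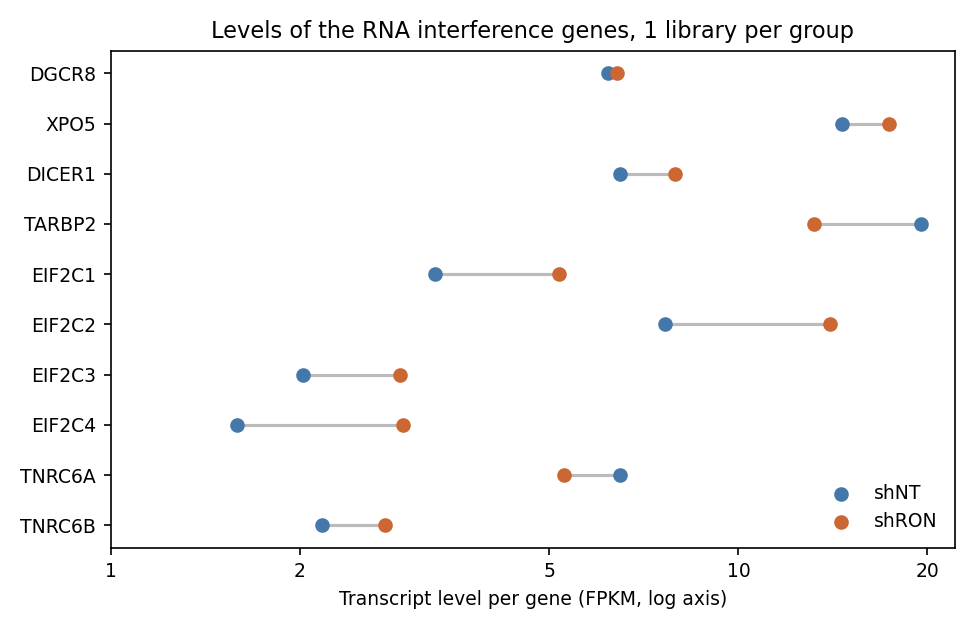
Level of each gene in FPKM on a log axis (transcripts summed), 1 point per library, with a grey line joining shNT (blue) and shRON (orange). The 4 Argonaute genes EIF2C1 to EIF2C4 lie further right in shRON, TARBP2 and TNRC6A further left, and DGCR8 at nearly the same place (6.19 and 6.42 FPKM).

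Differences are given as log2 ratios of shRON to shNT after 1 was added to each FPKM, which understates the ratio of low genes, and as the ratio of FPKM with an approximate interval that covers counting error only. The median log2 ratio of the 10 genes was 0.24, against 0.04 over the 12484 measured genes, which reached 1 FPKM in either library. Of the 10, 8 had a ratio above 0, as did 53.9% of all measured genes, and 2 had a ratio below 0 (46.1%). At a size of 1.5-fold on the FPKM + 1 scale, 2 of 10 were higher, EIF2C2 and EIF2C4, against 9.95% of measured genes, and 0 of 10 were lower, against 8.84%. The 2 became 1, EIF2C2, in 4 other settings. EIF2C4 was at 0.56 with the median of all genes subtracted, at 0.54 with the trend over expression removed and at 0.27 with a pseudocount of 5, and a filter at 5 FPKM leaves it out. There were 3 with a pseudocount of 0.1, where EIF2C1 was at 0.64, and 3 with the most abundant transcript only, where DICER1 was at 0.63.

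The Argonaute genes were the members with the highest ratios, and all 4 were higher in the shRON library. The level of EIF2C2 was 7.64 FPKM in shNT against 14.0 in shRON, from an estimated 394 and 715 fragments, a log2 ratio of 0.80. Its FPKM ratio was 1.83 (1.62 to 2.08), and 5.57% of measured genes had a higher log2 ratio. EIF2C2, which encodes AGO2, is at 141541264 to 141645646 on chromosome 8 (minus strand). EIF2C4, which encodes AGO4, was at 1.59 and 2.92 FPKM, from 112 and 194 fragments, a log2 ratio of 0.60 and an FPKM ratio of 1.84 (1.45 to 2.34). EIF2C1, which encodes AGO1, was at 3.28 and 5.17 FPKM, from 368 and 563 fragments (log2 ratio 0.53, FPKM ratio 1.58, interval 1.38 to 1.80). EIF2C3, which encodes AGO3, was at 2.02 and 2.89 FPKM, from 103 and 147 fragments (log2 ratio 0.36, FPKM ratio 1.43, interval 1.10 to 1.86). The 4 intervals overlap, so the libraries' depth does not separate the Argonaute genes from each other in the size of the difference.

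Summed over the 4 genes, Argonaute transcripts had 14.5 FPKM in shNT against 25.0 in shRON, a ratio of 1.72. EIF2C2 made up 52.6% of that sum in shNT and 56.0% in shRON, EIF2C1 22.6% and 20.7%, EIF2C3 13.9% and 11.6%, and EIF2C4 10.9% and 11.7%, so the composition of the family differed little. As a check on reads shared between the genes, the 40-base words of GENCODE's transcripts were compared. EIF2C3 (21247 words) and EIF2C4 (7416 words) shared 4, and the other pairs of Argonaute genes shared 0. The table's models are short, however. Its longest EIF2C2 transcript has 3500 bases against 14595 in GENCODE (release 44, lifted to GRCh37), that of EIF2C3 3556 against 19660, and that of EIF2C1 7478 against 13712. The levels of these genes thus describe only the part of the transcript that the table holds.

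The dicing genes went in opposite directions. TARBP2, which encodes the Dicer partner TRBP, had 19.5 FPKM in shNT against 13.2 in shRON, from 439 and 323 estimated fragments. Its log2 ratio was -0.53, the lowest of the 10, and its FPKM ratio 0.677 (0.585 to 0.784), with 10.7% of measured genes lower. DICER1, the nuclease gene, was at 6.48 and 7.92 FPKM, from 999 and 1181 fragments, a log2 ratio of 0.25 and an FPKM ratio of 1.22 (1.12 to 1.33). TARBP2 lies on the plus strand of chromosome 12 (53894705 to 53900215) and DICER1 on the minus strand of chromosome 14 (95552565 to 95623759). TARBP2 transcripts were 3.01 times as abundant as DICER1 transcripts in shNT and 1.67 times in shRON. PRKRA, the gene of the other Dicer partner, picked for this comparison with its values known, was at 17.2 and 20.5 FPKM, and its ratio to DICER1 was 2.66 and 2.60. TARBP2 was thus above PRKRA in shNT (1.13 times) and below it in shRON (0.643 times).

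The nuclear genes differed little, and the export gene XPO5 was somewhat higher in shRON. DGCR8 had 6.19 FPKM in shNT against 6.42 in shRON, from 400 and 406 fragments, and its FPKM ratio of 1.04 had an interval that includes 1 (0.900 to 1.19). RNASEN, the table's name for DROSHA, likewise picked with its values known, was at 11.0 and 11.3 FPKM (1.03, interval 0.934 to 1.13), so the ratio of DGCR8 to RNASEN was 0.564 in shNT and 0.569 in shRON. XPO5, the exportin gene and the most abundant member in shRON, was at 14.6 and 17.4 FPKM, from 1176 and 1369 fragments (log2 ratio 0.24, FPKM ratio 1.19, interval 1.10 to 1.29). XPO5 (minus strand of chromosome 6, 43490068 to 43543812) overlaps POLR1C over 7047 bases. Reads in that overlap cannot be assigned without strand, and the sources used here do not say whether the kit marked strand. POLR1C had a log2 ratio of 0.26. DGCR8 (plus strand of chromosome 22, 20067755 to 20099400) shares 3 bases with TRMT2A, and holds the microRNA gene MIR1306, listed at 0 in both libraries.

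The 2 GW182 genes also differed in direction. TNRC6A had 6.48 FPKM in shNT against 5.27 in shRON, from 797 and 629 fragments, a log2 ratio of -0.26 and an FPKM ratio of 0.813 (0.731 to 0.904). TNRC6B was at 2.17 and 2.73 FPKM, from 560 and 694 fragments, a log2 ratio of 0.24 and an FPKM ratio of 1.26 (1.13 to 1.41). Their paralog TNRC6C, a gene of the effector list named with its values known, was at 2.46 FPKM in both. The sum of the 3 TNRC6 genes was 11.1 FPKM in shNT against 10.5 in shRON, while the Argonaute sum was higher, so the ratio of Argonaute to TNRC6 transcripts was 1.31 in shNT and 2.39 in shRON. TNRC6A lies on the plus strand of chromosome 16 (24741049 to 24837548) and TNRC6B on that of chromosome 22 (40440821 to 40731812).

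Each gene was then set against its 20 nearest measured genes, 10 on either side, with the 10 members left out. The neighbours' median log2 ratio was above 0 for 8 of the 10 members, against 60.6% of measured genes, and 3 of the 8 share 1 set of neighbours. Relative to that median, 9 of 10 members were above 0, as were 50.0% of measured genes against their own neighbours, and 0 of 10 differed by 1.5-fold (8.02% of all genes were higher and 6.58% lower by that size). That 0 was 1 with no filter on low values (EIF2C2 at 0.79) and 1 with a pseudocount of 0.1 (EIF2C4 at 0.67). Without the filter, genes under 1 FPKM count as neighbours and the median log2 ratio of all genes was 0. That setting therefore does not compare members with expressed neighbours alone. The median relative ratio of the members was 0.14. The count of 1 member below its neighbours was 3 with 20 neighbours on either side, within 2 Mb, or with neighbours at 5 FPKM or more, and 4 with the trend over expression removed. DGCR8 and XPO5 changed sign in each of those 4 settings, since their relative ratios were 0.02 and 0.05. With no filter on low values the relative ratio of TNRC6A was -0.20.

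**Figure D2:**
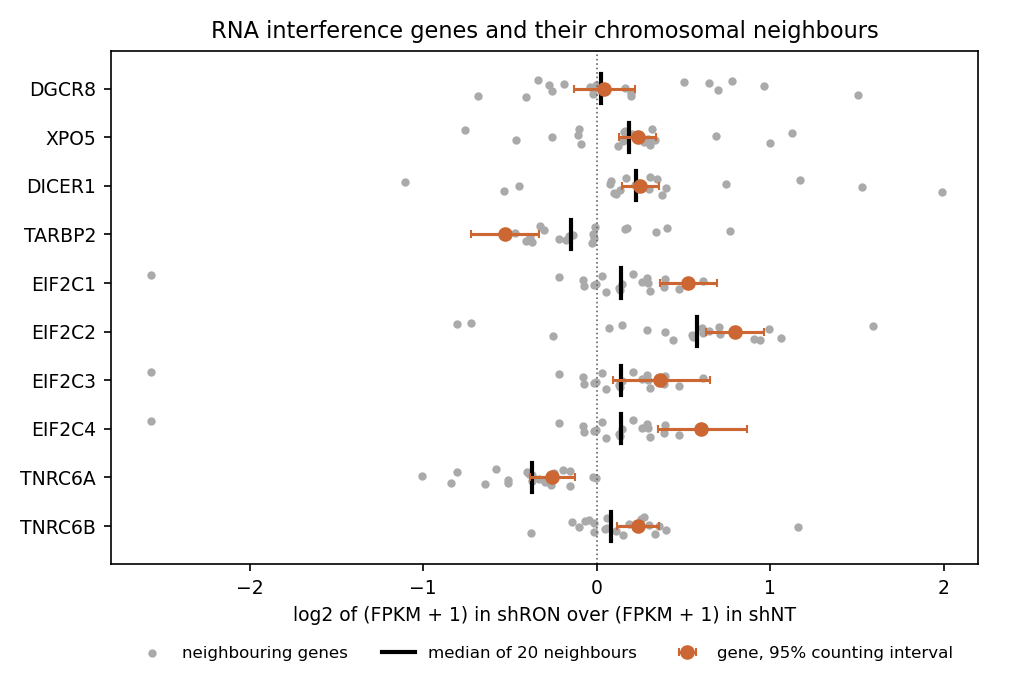
Log2 ratio of each gene (orange, with its 95% counting interval), of its 20 chromosomal neighbours (grey points) and their median (black bar). EIF2C1, EIF2C3 and EIF2C4 share the same 20 neighbours. The point of TARBP2 lies left of all 20 of its neighbours, but its interval includes ATP5G2 at -0.47. Every neighbour of TNRC6A lies left of 0.

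The Argonaute genes of chromosome 1 had ratios above the median of their surroundings, that of EIF2C3 not beyond counting error. Their 20 neighbours had a median of 0.14 and quartiles of -0.01 and 0.30, and 14 of the 20 were above 0. EIF2C4 was above 19 of the 20, with a relative ratio of 0.46. EIF2C1 was also above 19 (0.39), and EIF2C3 above 16 (0.23). On the log2 scale, the counting interval of EIF2C3 (0.10 to 0.65) includes the neighbours' median. Those of EIF2C1 (0.37 to 0.69) and EIF2C4 (0.35 to 0.87) lie above it. The nearest measured genes on either side, C1orf216 (0.14) and ADPRHL2 (0.30), were between 0 and the ratio of EIF2C3. Relative ratios of these 3 genes were above 0 under every alternative tried, from 0.06 for EIF2C3 to 0.67 for EIF2C4.

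EIF2C2 lies in a stretch of chromosome 8 whose other genes were higher too. Of its 20 neighbours, 17 were above 0, with a median of 0.58 and quartiles of 0.26 and 0.76. EIF2C2 was above 15 of them, and its log2 ratio of 0.80 became 0.22 relative to the median. With no filter on low values, where genes under 1 FPKM also count as neighbours, its relative ratio was 0.79, nearly its own log2 ratio. The nearest genes, CHRAC1 (0.39) and PTK2 (0.65), were both higher. These neighbours reach 10.7 Mb before and 2.30 Mb after the start of EIF2C2, a wider window than that of any other member. The part that this region plays in the higher level of EIF2C2 was not tested.

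TARBP2 and TNRC6A, the 2 lower members, differed in their surroundings. All 20 neighbours of TARBP2 had a higher log2 ratio than TARBP2 itself, the lowest being ATP5G2 at -0.47. Their median was -0.15, 15 of them were below 0, and the relative ratio of TARBP2 was -0.38. With the most abundant transcript only, that relative ratio was 0.32, the opposite sign. On the log2 scale the counting interval of TARBP2 (-0.72 to -0.33) includes the ratio of ATP5G2. Its summed FPKM also depends on the division between transcripts of unlike length, so its place below all 20 neighbours is not established. The nearest genes were MAP3K12 (-0.13) and ATF7 (-0.02). By contrast, all 20 neighbours of TNRC6A were below 0, with a median of -0.37 and quartiles of -0.53 and -0.23. Of these, 14 were lower than TNRC6A, whose ratio of -0.26 became 0.12 relative to them. The nearest genes, RBBP6 and ARHGAP17, were at -0.01 and -0.02. What the region contributes to the lower level of TNRC6A was not tested.

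**Figure D3:**
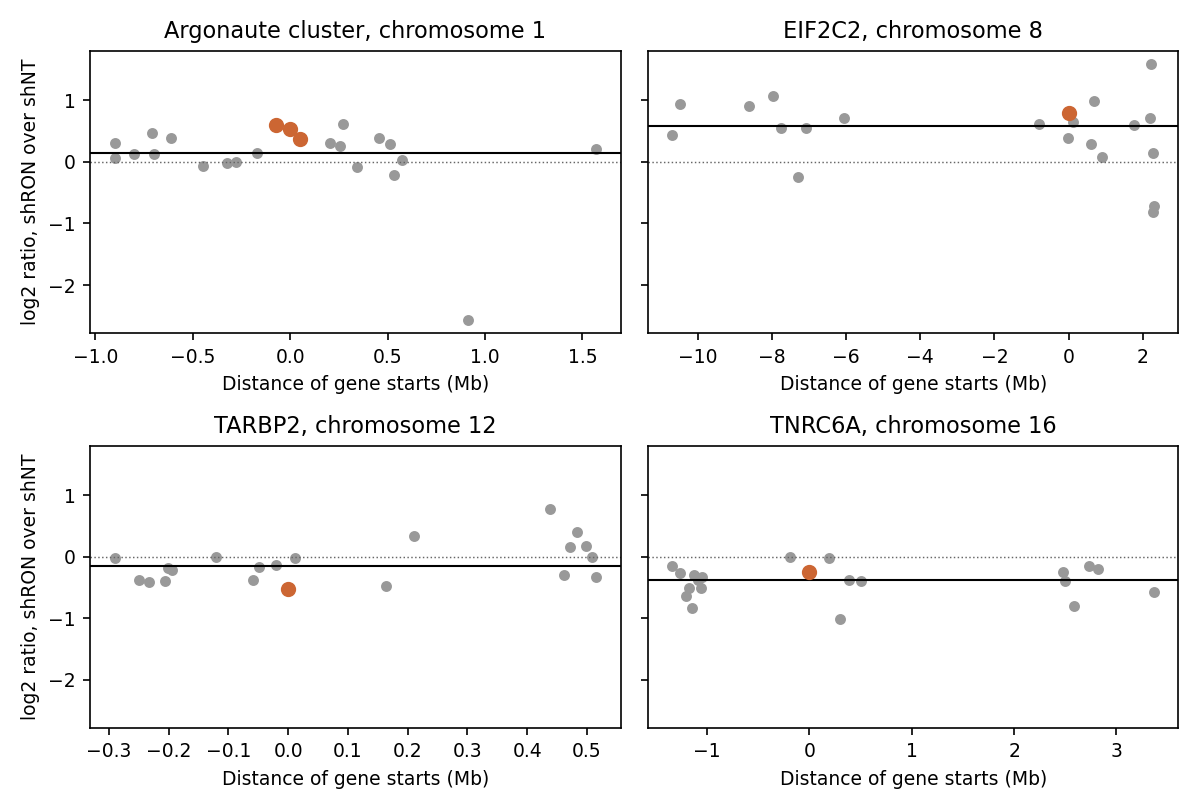
Log2 ratio of members (orange) and of the 20 nearest measured genes (grey) by distance of gene starts in Mb, for the 3 Argonaute genes of chromosome 1 (centred on EIF2C1), EIF2C2, TARBP2 and TNRC6A; the black line is the neighbours' median and the dotted line 0. The neighbours' medians are 0.14, 0.58, -0.15 and -0.37. By its summed FPKM, without its counting interval, TARBP2 lies below every grey point of its panel.

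The remaining 4 genes stood near the middle of their neighbours. DICER1 was above 11 of its 20 neighbours (median 0.23, relative ratio 0.02), although the set included IFI27 at 1.99 and SERPINA3 at 1.53, both named after their values were seen. The relative ratio of DICER1 was 0.25 with no filter on low values, -0.04 with the trend over expression removed and 0.40 with its most abundant transcript. DGCR8 and XPO5 were each above 11 of 20 (medians of 0.03 and 0.19). TNRC6B was above 13 of 20, with a median of 0.08 and a relative ratio of 0.15, which was -0.01 with the most abundant transcript only. The nearest measured genes were GSC (-0.45) and FLJ45244 (0.22) for DICER1, and C22orf25 (0.02) and TRMT2A (0.17) for DGCR8. Those of XPO5 were POLR1C (0.26) and POLH (-0.26), and those of TNRC6B were FAM83F (1.16) and ADSL (0.36).

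In the deposited estimates, transcripts of TARBP2 differed in opposite directions inside the gene, and so did those of DICER1. TARBP2 has 3 transcripts in the tables. NM_134323.1 had 9.43 FPKM in shNT against 10.8 in shRON, and made up 48.3% and 81.4% of the gene's level. NM_004178.4 was at 5.27 and 0.0224 FPKM (27.0% and 0.170%). NM_134324.2, which starts further downstream (53895377), was at 4.81 and 2.44 FPKM (24.7% and 18.4%). By this division, the lower level of TARBP2 in shRON lay in 2 of the 3 transcripts. With its most abundant transcript alone the log2 ratio was 0.17, opposite in sign to that of the gene. NM_004178.4 and NM_134323.1 have the same start and end (53894705 and 53900215). Their division is an estimate of the authors' software with no error among the columns used. Because the 3 transcripts differ in length (1407, 1872 and 1447 bases), the summed FPKM of the gene also depends on it.

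DICER1 has 2 transcripts with separate starts. NM_177438.2, whose 5' end is at 95623759, had 3.29 FPKM in shNT against 2.44 in shRON, while NM_030621.3, whose 5' end is at 95608055, was at 3.19 and 5.48. The share of the latter was 49.2% in shNT and 69.2% in shRON. TNRC6B kept the order of its main transcript, NM_015088.2 (1.28 and 1.46 FPKM, 58.8% and 53.2% of the gene), while NM_001162501.1 was at 0.466 and 0.870 FPKM (21.5% and 31.8%). EIF2C2, EIF2C3 and DGCR8 each have a second transcript at under 0.001 FPKM, and the other 4 genes have 1. The 2 DICER1 transcripts have 10221 and 10277 bases and share most of them, so their division rests on few reads and is an estimate of the authors' software with no error among the columns used.

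**Figure D4:**
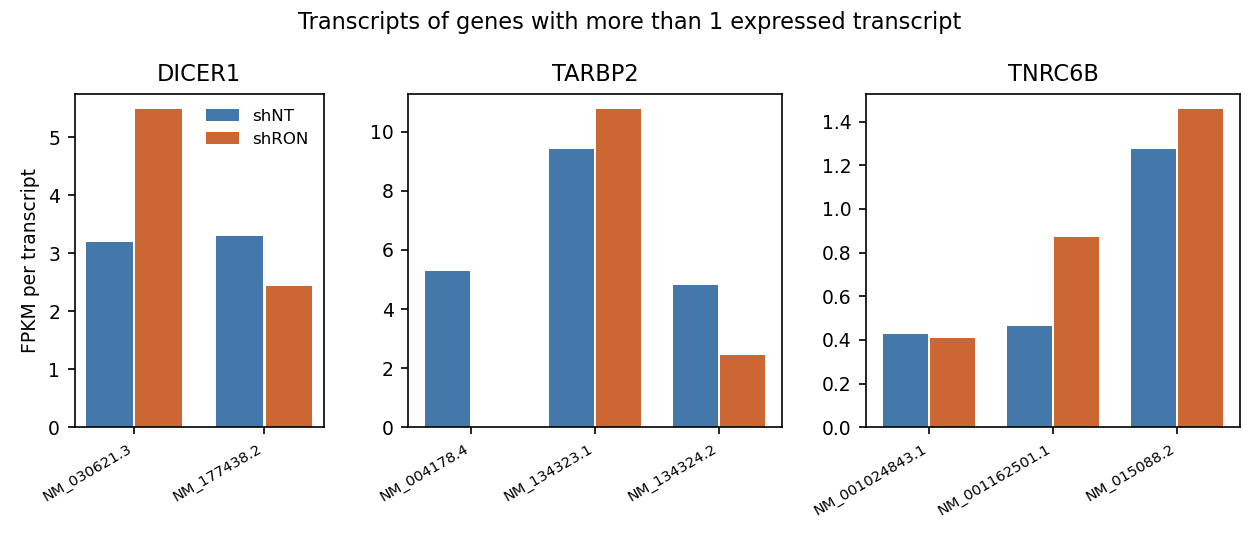
FPKM of each transcript of DICER1, TARBP2 and TNRC6B in shNT (blue) and shRON (orange), 1 bar per library, with axes that start at 0 and differ between panels. The bar of NM_004178.4 is 5.27 in shNT and too small to see in shRON (0.0224), while NM_030621.3 of DICER1 is higher in shRON (3.19 and 5.48).

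Other genes of the pathway were taken from 4 lists, and their counts are read against the same 9.95% higher and 8.84% lower. Of 21 nuclear and dicing partners, 20 were measured. Of the 19 with a usable estimate, 0 were at least 1.5-fold higher and 1 was lower. This was NCBP1, a nuclear cap-binding gene (7.39 to 4.25 FPKM, -0.68). Its neighbours had a median of -0.40, and its relative ratio was -0.28. The median of the 19 was 0.10. DDX17, a helicase gene of the Microprocessor, was left out of these counts because its 0 in shNT is marked as a failed estimate. Of 15 genes of Argonaute loading and passenger-strand removal, 0 were higher and 1 was lower. This was FKBP4, an HSP90 cochaperone gene (108 to 71.2 FPKM, -0.60, or -0.75 relative to its neighbours). The median of the 15 was -0.26, and 10 of them were below 0, against 46.1% of measured genes. HSP90AA1 itself, named with its values known, was at 471 and 392 FPKM.

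Silencing effectors, the genes of deadenylation, decapping and repression, had a median of 0.16. Of 40, 4 were at least 1.5-fold higher and 1 was lower. BTG1 (35.4 to 81.4 FPKM, 1.18) and BTG2 (3.94 to 9.25, 1.05), whose proteins bind deadenylases, were highest. The Argonaute-associated helicase gene MOV10 was at 13.4 and 23.1 FPKM (0.75, or 0.64 relative to its neighbours), and the deadenylase gene CNOT7 at 32.9 and 54.4 (0.71). CNOT1, the scaffold gene of the same deadenylase complex, was at 21.1 and 11.2 FPKM (-0.86). All 20 neighbours of CNOT1, on chromosome 16 like TNRC6A, were below 0, with a median of -0.66.

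**Figure D5:**
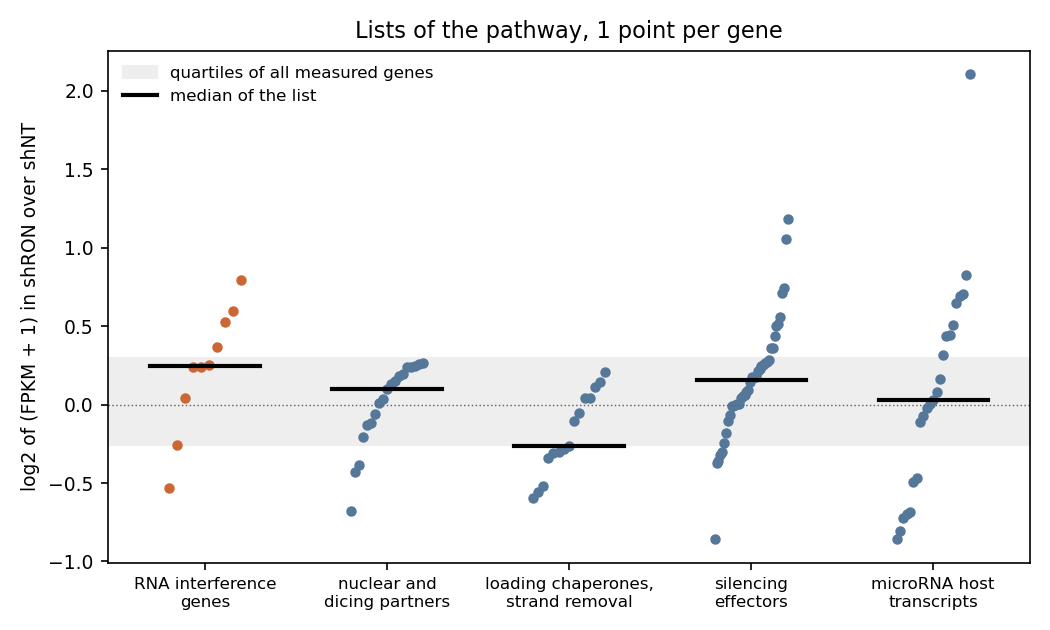
Log2 ratio of every measured gene of the 10 RNA interference genes and of 4 lists of the pathway, 1 point per gene sorted within each list, with the list's median as a black bar and the quartiles of all measured genes shaded. Medians are 0.24, 0.10, -0.26, 0.16 and 0.03 from left to right; DDX17, with a failed estimate, is not drawn.

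MicroRNAs themselves cannot be read from these libraries, and the MIR genes inside measured host genes were all listed at 0. Their long host transcripts can be read. Of 23 measured hosts out of 39 listed, 5 were at least 1.5-fold higher and 5 lower, with a median of 0.03. The 5 largest differences were those of H19, an imprinted noncoding RNA (4.11 to 21.0 FPKM, 2.11), SKA2 (30.6 to 16.4, -0.86), LOC400931 (0.877 to 2.33, 0.83), EGFL7 (10.5 to 5.55, -0.81) and SMC4 (33.4 to 19.8, -0.72). LOC400931 reached 1 FPKM in shRON only. For the MIR genes that lie inside these hosts by the tables' positions, 1 mature sequence each is shown, from RefSeq (GRCh38.p14), with the seed (bases 2 to 8) in capitals because the seed sets which mRNAs an Argonaute protein finds.
hsa-miR-675-5p in H19: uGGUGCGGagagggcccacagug
hsa-let-7a-5p in LOC400931: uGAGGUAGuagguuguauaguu
hsa-let-7b-5p in LOC400931: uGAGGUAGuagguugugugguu
hsa-miR-301a-3p in SKA2: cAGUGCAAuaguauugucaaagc
hsa-miR-454-3p in SKA2: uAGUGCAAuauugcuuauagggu
hsa-miR-126-3p in EGFL7: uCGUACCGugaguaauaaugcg
hsa-miR-15b-5p in SMC4: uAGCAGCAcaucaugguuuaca
hsa-miR-16-5p in SMC4: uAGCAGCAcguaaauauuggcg
Both let-7 forms share 1 seed, as do miR-301a and miR-454, and miR-15b and miR-16. The host of the let-7 forms was higher in shRON, and the hosts of the other 2 seed groups were lower. Host levels say nothing certain about mature microRNAs, which were not measured here.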

How the data were processed

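The authors deposited 1 transcript table per library, in the layout of Cufflinks over RefSeq accessions per the file headers, on hg19 per the submitters' processing notes, which also name DESeq without a role. The sources used here give no aligner or version. Per gene, the authors' deposited FPKM values were summed over transcripts. Any scaling between libraries is not stated. The deposited coverage (a signal, mean read depth) times transcript length, divided by the median bases of 1 read pair (247.5 in shNT, 244.9 in shRON, from 370 and 364 low single-transcript genes), gave estimated fragments. These entered exact (Clopper-Pearson) 95% intervals with scipy 1.17.1, which cover counting error only. Each interval of the fragment ratio was then rescaled to the FPKM ratio of the gene, which can differ from the fragment ratio where transcripts differ in length. Measured genes are those that reached 1 FPKM in either library, small RNA genes left out. No test was possible with 1 library per group. The functions were tested on simulated data. The 2 tables differ in row order and were joined by transcript.

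The 10 members, the lists and the settings were chosen with earlier results of these data known. Named genes were all members with their transcripts, MST1R, the nearest measured gene on either side, and up to 5 genes past 1.5-fold per list; exceptions are marked in the text. Start positions are counted from 1, 1 more than in the tables.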

Additional observations from a re-analysis of the deposited data

How the results depend on the processing

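No paired analysis was possible because each group has 1 library. The median log2 ratio of the members stayed between 0.17 (pseudocount of 5) and 0.30 (pseudocount of 0.1) under 8 other settings and was 0.24 with the chromosome 1 Argonautes summed as 1 locus, an alternative chosen after seeing the data. The 2 members at least 1.5-fold higher were 1 with a pseudocount of 5, with the median of all genes subtracted and with the trend removed, and 1 of 7 with a filter at 5 FPKM, which EIF2C3, EIF2C4 and TNRC6B do not pass; they were 3 with a pseudocount of 0.1 and with the most abundant transcript only. The 2 members below 0 were 1 with the most abundant transcript only, where TARBP2 was at 0.17, and 3 with the trend removed, where DGCR8 was at -0.02. The median relative to neighbours, 0.14, was 0.0089 with the filter at 5 FPKM. The single member below its neighbours became 3 with that filter, 2 with no filter, 4 with the trend removed, and 3 with 20 neighbours on either side, within 2 Mb or with neighbours at 5 FPKM or more. The 7 members that pass the filter have the same relative ratios with neighbours at 5 FPKM or more. In that setting all 10 members stay and the median is 0.11. There EIF2C3, EIF2C4 and TNRC6B had relative ratios of 0.13, 0.36 and 0.18, and only their absence sets the median of 0.0089 apart from that of 0.11. The causes of the other changes were not tested. Every Argonaute gene kept a ratio above 0 in each alternative that held it, and TNRC6A one below 0. EIF2C3 and EIF2C4, with 103 and 112 estimated fragments in shNT, have the widest counting intervals.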

Other observations

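The germline counterparts of the Argonaute genes were close to absent. Of the 10 PIWI and associated genes listed, 2 reached 1 FPKM, TDRKH (14.5 to 11.7 FPKM) and PLD6 (3.18 to 3.42), which encode mitochondrial proteins. The PIWI genes themselves were at or under 0.0192 FPKM in both libraries, and PIWIL1 and PIWIL3 were listed at 0. RNASEN, whose total was nearly the same in both libraries, differed in the division between its 2 transcripts: NM_001100412.1 made up 42.7% of it in shNT (4.68 FPKM) and 53.4% in shRON (6.02 FPKM), an estimate without an error among the columns used.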
